A study of Mus musculus with 2 samples.

Results

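The TGF-β genes are described here in 8 members: the ligand genes Tgfb1, Tgfb2 and Tgfb3, the activin subunit gene Inhba, the latency gene Ltbp1, the receptor genes Tgfbr1 and Tgfbr2, and the target gene Tgfbi. They were taken by symbol from the gene list of the deposited matrices, in which each matched 1 of 56694 genes, and they were followed across epidermal, hair follicle (HF) and dermal cells of mouse back skin. The skin was taken at postnatal day (P) 2 from Gli2EKO mice, in which K14Cre, a Cre transgene driven by a keratin promoter of basal keratinocytes, removes the floxed Gli2 gene from the skin epithelium, and from control mice, which per the study's methods are floxed littermates without Cre and which the labels call WT. Gli2 is a transcription factor of the Hedgehog pathway. The mice were kept on a C57Bl/6N background. There is 1 library per genotype, and the number of mice behind each library is not given in the sources used here.

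TGF-β ligands are secreted as latent complexes, in which the ligand stays bound to its propeptide and is anchored to the extracellular matrix by a latent TGF-β binding protein such as LTBP1, until integrins or proteases free it. The freed ligand binds a type II receptor (TGFBR2), which recruits and phosphorylates a type I receptor (TGFBR1), and the type I receptor then phosphorylates SMAD2 and SMAD3. Activin A, a dimer of the Inhba product, uses other receptors but the same SMADs and is held in check by follistatin (Fst). In skin, TGF-β restrains keratinocyte division, Tgfb2 is known as a ligand of the developing follicle, and activin of the dermal papilla acts on the follicle epithelium.

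RNA was captured by its polyA end in droplets, and each captured molecule carried a unique molecular identifier (UMI), which is what was counted. The control library held 6326 barcodes with 71021773 UMIs and the Gli2EKO library 4296 barcodes with 48866478 UMIs, and no barcode was shared. After filtering, 4456 control and 3093 Gli2EKO cells remained, with medians of 11806 and 11909 UMIs per cell. Of these, 1132 and 791 lay in clusters with markers of other cell types and were set aside. They were mostly dermal cells that the digestion of the dermis had left. The other 3324 and 2302 cells were taken as keratinocytes. Clusters were made without the 8 genes and were given the name of a class, written as "-like", from marker genes. The 7 IFE basal markers, for example, summed to 31636 and 33391 UMIs per 1000000 in the IFE basal-like class, and the 6 dermal papilla markers to 6595 and 4644 in the dermal papilla-like class, with no marker of either list at 0. A level is a gene's UMIs, pooled from all cells of a class in 1 library, as counts per 1000000 UMIs of those cells (CPM), and ratios are given as the log2 of Gli2EKO over control. All intervals are 95% intervals for counting error only, because 1 library per genotype allows no test. Levels in 3′ counts depend on the gene, so they are compared between cells and not between genes. A difference between the libraries can be a difference between mice, dissections or genotypes, and these cannot be told apart. The counts of Gli2 do not check the labels, since the assay reads the polyA end and the deleted exons are not given in the sources used here.

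All 8 genes are protein coding. In GRCm39, Tgfb1 (ENSMUSG00000002603) lies on the plus strand of chromosome 7 at 25386390 to 25404506. Tgfb2 (ENSMUSG00000039239) lies on the minus strand of chromosome 1 at 186354985 to 186438294, and Tgfb3 (ENSMUSG00000021253) on the minus strand of chromosome 12 at 86102756 to 86126301. Each of the 3 TGF-β genes has 7 exons in its canonical transcript. Inhba (ENSMUSG00000041324), with 3 exons, lies on the plus strand of chromosome 13 at 16186373 to 16206206. Ltbp1 (ENSMUSG00000001870) spans chromosome 17 from 75312519 to 75699507 on the plus strand with 30 exons. Tgfbr1 (ENSMUSG00000007613; chromosome 4, 47353134 to 47414931, plus strand) has 9 exons and Tgfbr2 (ENSMUSG00000032440; chromosome 9, 115913361 to 116004800, minus strand) has 7. Tgfbi (ENSMUSG00000035493), with 17 exons, lies on the plus strand of chromosome 13 at 56757336 to 56787375.

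The promoters of Tgfb2 and Ltbp1 are shown because the levels of both genes differed between the libraries in the same direction in several classes. The sequences are RefSeq's on GRCm38.p6, from 250 bases before to 50 after a start site, read on the gene's strand. Capitals mark the SMAD motif CAGACA and the TATA motif TATAAA, on either strand. The Tgfb2 window is chr1:186705940-186706239 on the minus strand, and the 2 Ltbp1 windows are chr17:75005279-75005578 and chr17:75178531-75178830 on the plus strand.
Tgfb2: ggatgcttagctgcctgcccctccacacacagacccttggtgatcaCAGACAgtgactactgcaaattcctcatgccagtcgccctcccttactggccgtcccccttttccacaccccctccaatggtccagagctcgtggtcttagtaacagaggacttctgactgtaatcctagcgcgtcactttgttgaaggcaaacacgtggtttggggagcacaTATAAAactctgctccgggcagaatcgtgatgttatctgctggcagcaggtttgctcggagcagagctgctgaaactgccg
Ltbp1, first start: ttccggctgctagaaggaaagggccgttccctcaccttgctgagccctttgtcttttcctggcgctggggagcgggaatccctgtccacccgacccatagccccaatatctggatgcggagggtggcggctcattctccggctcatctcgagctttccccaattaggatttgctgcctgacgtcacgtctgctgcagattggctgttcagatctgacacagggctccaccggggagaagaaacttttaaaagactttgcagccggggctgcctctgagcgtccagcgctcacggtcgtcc
Ltbp1, second start: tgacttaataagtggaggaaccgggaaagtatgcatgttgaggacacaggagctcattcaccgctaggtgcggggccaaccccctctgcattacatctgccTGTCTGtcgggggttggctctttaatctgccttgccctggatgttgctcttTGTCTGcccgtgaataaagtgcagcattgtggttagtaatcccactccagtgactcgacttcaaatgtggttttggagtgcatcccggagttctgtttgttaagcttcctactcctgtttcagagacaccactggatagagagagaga
The Tgfb2 window holds 1 CAGACA and 1 TATAAA, the first Ltbp1 window holds neither motif, and the second Ltbp1 window holds 2 CAGACA. Of all 32851 windows of this length, 21.0% held CAGACA and 13.6% TATAAA. The 9-letter GLI motif GACCACCCA was in 0.253% of all windows and in none of those of the members, and its core CCACCCA, which lies within it, was in 9.30% of all windows and, among the members, only in that of Tgfb1. These are matches of letters and not binding sites.

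Each gene had its own distribution over the cells of the skin. Tgfb2 was mainly a follicle gene: the outer root sheath (ORS) classes HF2 ORS-like and HF2 ORS/SC-like, the latter with stem cell (SC) markers, held 34.0% and 28.2% of its 3154 UMIs in the control library and 30.1% and 28.8% of its 1392 in the Gli2EKO library. The matrix/progenitor-like class held 8.7% of the Tgfb2 UMIs in the control library and 19.1% in the Gli2EKO library. Inhba was mainly a dermal papilla gene, with 74.2% and 68.9% of its 2214 and 1586 UMIs in the dermal papilla-like class. Tgfbi was mainly a gene of the interfollicular epidermis (IFE), with 48.4% and 61.1% of its 3020 and 2778 UMIs in the IFE basal-like class. Ltbp1 was shared by the HF2 ORS-like class (26.9% and 15.4% of 6780 and 3664 UMIs) and the dermal papilla-like class (20.4% and 29.0%). Tgfb1 and both receptor genes were spread over epithelial and dermal cells, and fibroblast-like cells held 45.0% and 34.8% of the Tgfbr2 UMIs. These shares also move with the number of cells captured per class, such as 359 control and 557 Gli2EKO cells in the IFE basal-like class and 396 and 165 in the matrix/progenitor-like class.

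**Figure D1:**
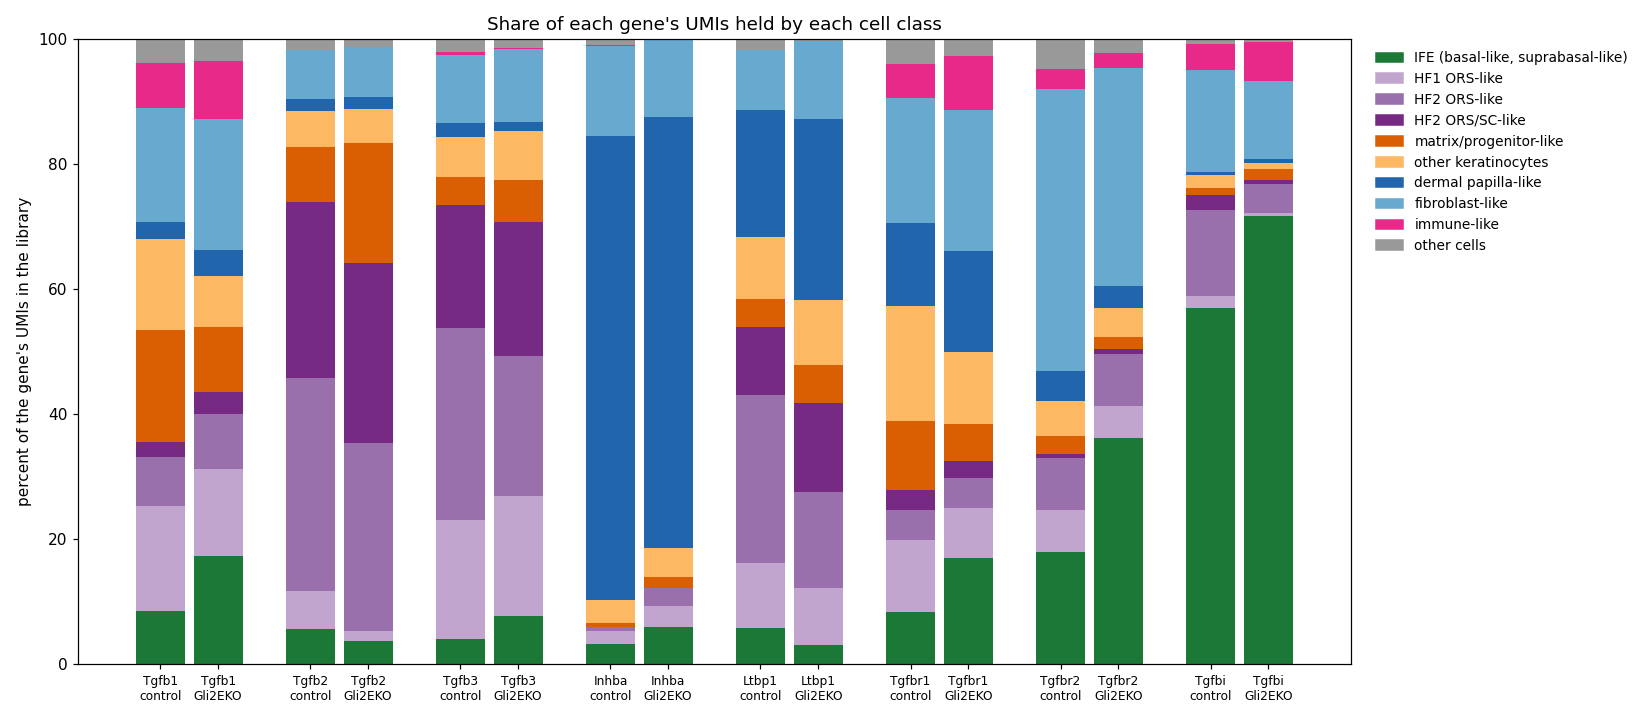
Stacked bars give the percent of each gene's UMIs in a library that lay in each cell class (vertical axis, 0 to 100%), with control and Gli2EKO side by side for each gene. Follicle classes hold most of Tgfb2 and Tgfb3, the dermal papilla-like class holds 74.2% and 68.9% of Inhba, and the IFE classes hold the largest block of Tgfbi.

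Tgfb1, the ligand best known from immune and wound tissue, was high in immune-like cells, at 161 CPM in the control library (interval 136 to 189) and 194 CPM in the Gli2EKO library (159 to 234). Endothelial-like cells, only 24 and 7 in number, had 94.1 and 236 CPM from 26 and 18 UMIs, below the immune-like cells in the control library and above them in the Gli2EKO library. In fibroblast-like cells the level was 46.0 and 43.3 CPM. Among the named keratinocyte classes it was highest in the matrix/progenitor-like class, with 55.0 and 41.7 CPM, followed by the HF1 ORS-like class with 40.8 and 36.2 CPM. It was lowest in the IFE suprabasal-like class, with 6.47 and 2.13 CPM from 33 and 14 UMIs, whereas the IFE basal-like class had 23.3 and 21.5 CPM. The intervals of the ratio included 0 in the IFE basal-like, HF1 ORS-like, HF2 ORS-like, HF2 ORS/SC-like and fibroblast-like classes. In the inner root sheath (IRS)-like class, however, Tgfb1 was 34.1 CPM in the control library and 18.8 CPM in the Gli2EKO library, a log2 ratio of -0.84 (-1.51 to -0.26). The log2 ratio was also below 0 in the matrix/progenitor-like class, at -0.39. In the IFE suprabasal-like class it was -1.57, from the few UMIs given above. In keratinocytes as a whole the log2 ratio was -0.50 (-0.63 to -0.37), and with the Gli2EKO clusters weighted to the control shares it was -0.25.

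Tgfb2 had the widest range of ratios among the named classes with at least 50 UMIs of a member. Its level was highest in the HF2 ORS/SC-like class, at 378 CPM in the control library (354 to 404; 889 UMIs) and 289 CPM in the Gli2EKO library (262 to 319; 401 UMIs), a log2 ratio of -0.39 (-0.56 to -0.22). In this class the 5 skeletal muscle markers summed to 0.426 CPM in the control library and 1319.7 CPM in the Gli2EKO library, and their part in this and the other ratios of the class was not tested. The HF2 ORS-like class, led by Aldh3a1, Sostdc1 and Lgr6, came next among the named classes with 171 CPM (160.5 to 181) against 96.7 CPM (87.7 to 106), a log2 ratio of -0.82 (-0.98 to -0.65). The control library was the higher in both classes, and the intervals of the levels did not overlap. In the HF2 ORS-like class, IFE suprabasal markers were higher in the Gli2EKO library, as given below with Ltbp1. Its cluster of dividing cells held 147 of 478 control and 119 of 293 Gli2EKO cells. The part of both in the Tgfb2 ratio and the other ratios of the class was not tested. In the HF1 ORS-like class the level was 23.0 CPM (196 UMIs) in the control library and 5.14 CPM (23 UMIs) in the Gli2EKO library, a log2 ratio of -2.13 (-2.85 to -1.54). Across the alternative cluster settings this ratio lay between -2.27 and -0.75, and its UMIs came from 51 of 608 control cells and 10 of 358 Gli2EKO cells.

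In the IFE basal-like class Tgfb2 was 25.9 CPM in the control library (22.0 to 30.3; 158 UMIs) and 4.21 CPM in the Gli2EKO library (2.95 to 5.83; 36 UMIs), a log2 ratio of -2.61 (-3.19 to -2.09). Few cells carried it: 39 of 359 control cells and 24 of 557 Gli2EKO cells. The 10 cells with the most Tgfb2 UMIs held 74.7% of the control UMIs, and 1 of them alone held 51. Without the 3% of cells with the most Tgfb2 UMIs in each library the log2 ratio was -2.80, from 37 control and 7 Gli2EKO UMIs. This cut took 11 control and 17 Gli2EKO cells, and so most of the Gli2EKO cells with Tgfb2. It cannot show whether the difference rests on few cells. Across the alternative settings the log2 ratio lay between -2.61 and -1.001. The Gli2EKO level was the lower in each of the 3 clusters of the class, in 1 of them from too few UMIs to show more than a direction. The control cell with 51 UMIs also enters 1 of these levels. The cluster of dividing cells had 50.8 CPM in the control library and 5.03 CPM in the Gli2EKO library, the largest cluster had 12.9 and 4.96 CPM, and the cluster with Atf3 and Fosl1 among its leading genes had 4.81 and 1.15 CPM from 7 and 2 UMIs. Markers of the HF2 ORS summed to 239 CPM in control IFE basal-like cells and 165 CPM in Gli2EKO cells, and their part in the result was not tested. IFE suprabasal-like cells carried little Tgfb2 in either library, at 3.34 and 2.28 CPM, and immune-like cells had 0 UMIs in both.

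The matrix/progenitor-like class, whose leading genes were Dcn, Mt2 and Mt1 beside the class markers Shh, Msx1 and Myb, went the other way. Here Tgfb2 was 40.6 CPM in the control library (35.9 to 45.7; 274 UMIs) and 93.3 CPM in the Gli2EKO library (82.4 to 105; 266 UMIs), a log2 ratio of 1.20 (0.95 to 1.45) that stayed between 1.08 and 1.29 in the alternative settings. Tgfb2 was detected in 131 of 396 control cells and 68 of 165 Gli2EKO cells. Marker lists moved in this class too. The 7 IFE basal markers summed to 1310 CPM in the control library and 3147 CPM in the Gli2EKO library, the 5 HF1 ORS markers to 693 and 1353 CPM, and the 5 HF2 ORS markers to 80.4 and 247 CPM. The 9 matrix/progenitor markers were lower, at 2448 and 1732 CPM, and the 8 fibroblast markers stood at 1750 and 1597 CPM. Their part in the Tgfb2 difference was not tested. The IRS-like class had 15.4 and 16.1 CPM of Tgfb2, with an interval of the log2 ratio from -0.69 to 0.78.

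Dermal cells held less Tgfb2 than the HF2 classes. The level was 38.3 CPM in control dermal papilla-like cells and 24.1 CPM in Gli2EKO cells (61 and 26 UMIs), and the interval of the log2 ratio, -1.39 to 0.02, included 0. The HF2 ORS markers, of a class rich in Tgfb2, summed to 1067 CPM in control dermal papilla-like cells and 288 CPM in Gli2EKO ones, and their part was not tested. In fibroblast-like cells it was 30.3 and 20.04 CPM, a log2 ratio of -0.59 (-0.93 to -0.27). After each cell was thinned to 2000 UMIs, 27.2% of control and 25.9% of Gli2EKO HF2 ORS/SC-like cells held Tgfb2 (intervals 21.9 to 33.1% and 19.3 to 33.5%), against 42.2% and 35.2% before thinning. In immune-like cells, used as background, it was 0 of 92 and 0 of 44 cells, which at a floor of 3 counts allows shares of up to 3.26% and 6.82%, and the Clopper-Pearson intervals reach 3.93% and 8.04%. Their median depths were 9995 and 12618 UMIs. In the IFE basal-like class the thinned shares were 3.06% (1.54 to 5.42%) and 0.898% (0.292 to 2.08%), within what this background allows.

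Tgfb3 followed the same follicle classes as Tgfb2 but differed less between the libraries. Its highest level was again in the HF2 ORS/SC-like class, with 93.2 CPM in the control library (219 UMIs) and 107.5 CPM in the Gli2EKO library (149 UMIs), and the interval of the log2 ratio, -0.10 to 0.51, included 0. The HF2 ORS-like class had 54.1 and 35.8 CPM, a log2 ratio of -0.59 (-0.88 to -0.32) that stayed within 1.5-fold in all 6 alternative settings, at -0.57 to -0.45. In the HF1 ORS-like class the level was 24.9 and 29.9 CPM. The matrix/progenitor-like class had 7.41 CPM from 50 UMIs in the control library and 16.1 CPM from 46 UMIs in the Gli2EKO library, a log2 ratio of 1.12 (0.51 to 1.73). IFE basal-like cells had 5.58 and 5.03 CPM, about the same in both libraries. Pericyte or smooth muscle-like cells had 45.9 and 34.9 CPM, from only 14 and 6 UMIs.

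**Figure D2:**
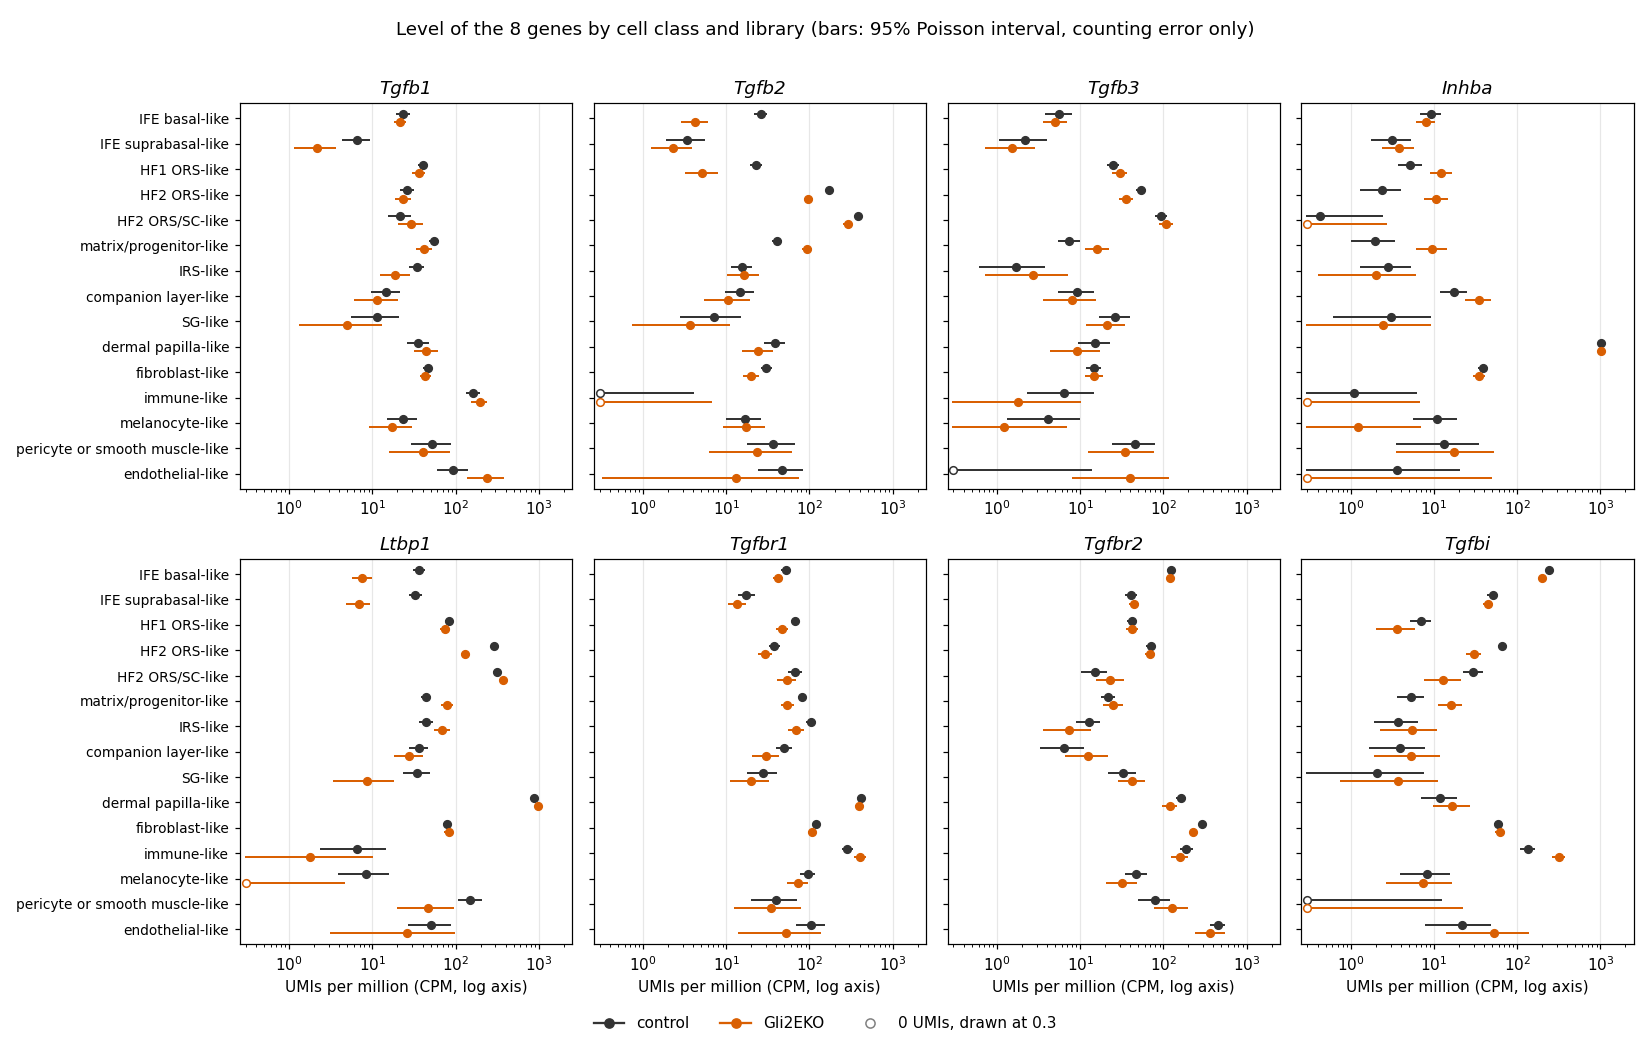
Each panel gives 1 gene's level in CPM (horizontal log axis) in the cell classes (vertical axis), with control in black and Gli2EKO in orange; bars are 95% Poisson intervals and open points are classes with 0 UMIs. Inhba stands at 1031 and 1012 CPM in the dermal papilla-like class and below 40 CPM in the other classes, and Tgfb2 peaks in the HF2 ORS/SC-like class at 378 and 289 CPM.

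Inhba was the gene most concentrated in 1 class. Dermal papilla-like cells had 1031 CPM in the control library (982 to 1082; 1643 UMIs) and 1012 CPM in the Gli2EKO library (953 to 1074; 1093 UMIs), and the interval of the log2 ratio, -0.14 to 0.09, included 0. Both clusters of the class carried it, at 1189 and 1068 CPM in the cluster with Corin among its leading genes and at 872 and 893 CPM in the cluster led by Dcc and Rspo2. The sum of the dermal papilla markers, given above, was lower in the Gli2EKO library. Of dermal papilla-like cells thinned to 2000 UMIs, 77.9% and 75.3% had an Inhba UMI, compared with 0 of 92 and 0 of 44 immune-like cells. Fibroblast-like cells had 38.7 and 35.0 CPM.

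In keratinocytes Inhba was low but higher in the Gli2EKO library, at 4.94 CPM in the control library (228 UMIs) and 8.90 CPM in the Gli2EKO library (295 UMIs), a log2 ratio of 0.85 (0.59 to 1.10). The HF2 ORS-like class had 2.39 CPM from 15 UMIs and 10.6 CPM from 46 UMIs, a log2 ratio of 2.12 (1.29 to 3.10). These UMIs came from 11 of 478 control cells and 18 of 293 Gli2EKO cells. The HF1 ORS-like class had 5.16 and 12.3 CPM, a log2 ratio of 1.25 (0.65 to 1.86), and the companion layer-like class had 17.5 and 34.5 CPM, a log2 ratio of 0.98 (0.29 to 1.67). The 6 dermal papilla markers summed to 4.57 and 5.36 CPM in the HF1 ORS-like class and to 6.84 and 7.16 CPM in the HF2 ORS-like class. The 5 companion layer markers, which mark a class with more Inhba, summed to 58.1 and 156 CPM in the HF1 ORS-like class and to 447 and 560.0 CPM in the HF2 ORS-like class, and their part in the result was not tested. After thinning to 2000 UMIs, 1.05% of control and 1.02% of Gli2EKO HF2 ORS-like cells had an Inhba UMI, below what the 0 counts in immune-like cells allow, and so no difference in the share of cells was detectable at this depth. The IFE basal-like class had 9.19 and 7.95 CPM, and its log2 ratio lay between -0.25 and 0.81 in the alternative settings. A single control cell held 27 of the 56 control Inhba UMIs of this class. Its cells led by Atf3 and Fosl1 had 21.3 and 21.9 CPM.

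Ltbp1, the gene of the latency protein, was highest in dermal papilla-like cells, with 868 CPM in the control library (823 to 915) and 984 CPM in the Gli2EKO library (926 to 1046), a log2 ratio of 0.18 (0.07 to 0.30). Among keratinocytes it was highest in an unnamed cluster led by Tox and Cdh13, with 782 and 449.6 CPM in 35 and 38 cells. These cells had medians of only 4967 and 4115 UMIs and of 10.2% and 10.5% mitochondrial UMIs. In each library 10 of them held 92.3% and 97.5% of the cluster's Ltbp1 UMIs. Without integration, a cluster of 35 and 38 cells led by Cdh13 was named IFE basal-like. Among the follicle classes Ltbp1 was high in the same ones as Tgfb2. The HF2 ORS/SC-like class had 312 and 375 CPM (log2 ratio 0.27; 0.10 to 0.43), beside the same skeletal muscle markers. The HF2 ORS-like class had 290.0 CPM in the control library (1823 UMIs) and 130.4 CPM in the Gli2EKO library (565 UMIs), a log2 ratio of -1.15 (-1.29 to -1.02). The Gli2EKO library was thus the higher in the HF2 ORS/SC-like class and the lower in the HF2 ORS-like class, and the intervals of both ratios lay apart. The thinned share of HF2 ORS-like cells with an Ltbp1 UMI was 34.8% (30.5 to 39.3%) in the control library and 17.4% (13.2 to 22.2%) in the Gli2EKO library. In that class the 10 IFE suprabasal markers summed to 809 CPM and 1560 CPM, its own 5 markers to 1857 and 1806 CPM, and the part of the former in the result was not tested.

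In the IFE, Ltbp1 was lower in the Gli2EKO library in both layers. The IFE basal-like class had 36.4 CPM (222 UMIs) in the control library and 7.49 CPM (64 UMIs) in the Gli2EKO library, a log2 ratio of -2.27 (-2.71 to -1.88), and the IFE suprabasal-like class had 32.8 and 6.85 CPM, a log2 ratio of -2.25 (-2.77 to -1.78). Ltbp1 was found in 60 of 359 control and 35 of 557 Gli2EKO IFE basal-like cells, and each of the 3 clusters of the class showed the difference, with 58.8 and 11.3 CPM in its dividing cells. In the IFE suprabasal-like class it was found in 41 of 217 control and 23 of 307 Gli2EKO cells. There the 10 cells with the most Ltbp1 UMIs held 61.7% and 71.1% of them, and 1 control cell held 33 of 167. In the IFE basal-like class the dermal papilla markers summed to 13.0 and 3.63 CPM, and in the IFE suprabasal-like class the 7 IRS markers summed to 759 and 321 CPM. The part of these markers in the result was not tested. As with Tgfb2, the matrix/progenitor-like class went the other way, with 44.1 CPM in the control library (39.3 to 49.4) and 78.2 CPM in the Gli2EKO library (68.3 to 89.2), a log2 ratio of 0.83 (0.57 to 1.08), beside the marker shifts given above for that class. The HF1 ORS-like class had 83.4 and 74.8 CPM, with an interval of the log2 ratio that included 0. In the IRS-like class the log2 ratio of 0.66 (0.28 to 1.02; 43.9 and 69.3 CPM) rested on few cells, since 10 of 136 Gli2EKO cells held 82.5% of the UMIs, and it was -0.23 when no doublets were removed. Fibroblast-like cells had 78.0 and 82.1 CPM, but apart from a cluster of 25 and 11 cells their clusters ranged from 4.09 and 11.98 CPM in the one led by Tnmd and Acan to 149.6 and 183 CPM in the one led by Coch, Nrg1 and Dkk1. In the 26 control and 20 Gli2EKO pericyte or smooth muscle-like cells the log2 ratio was -1.62, from 46 and 8 UMIs.

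**Figure D3:**
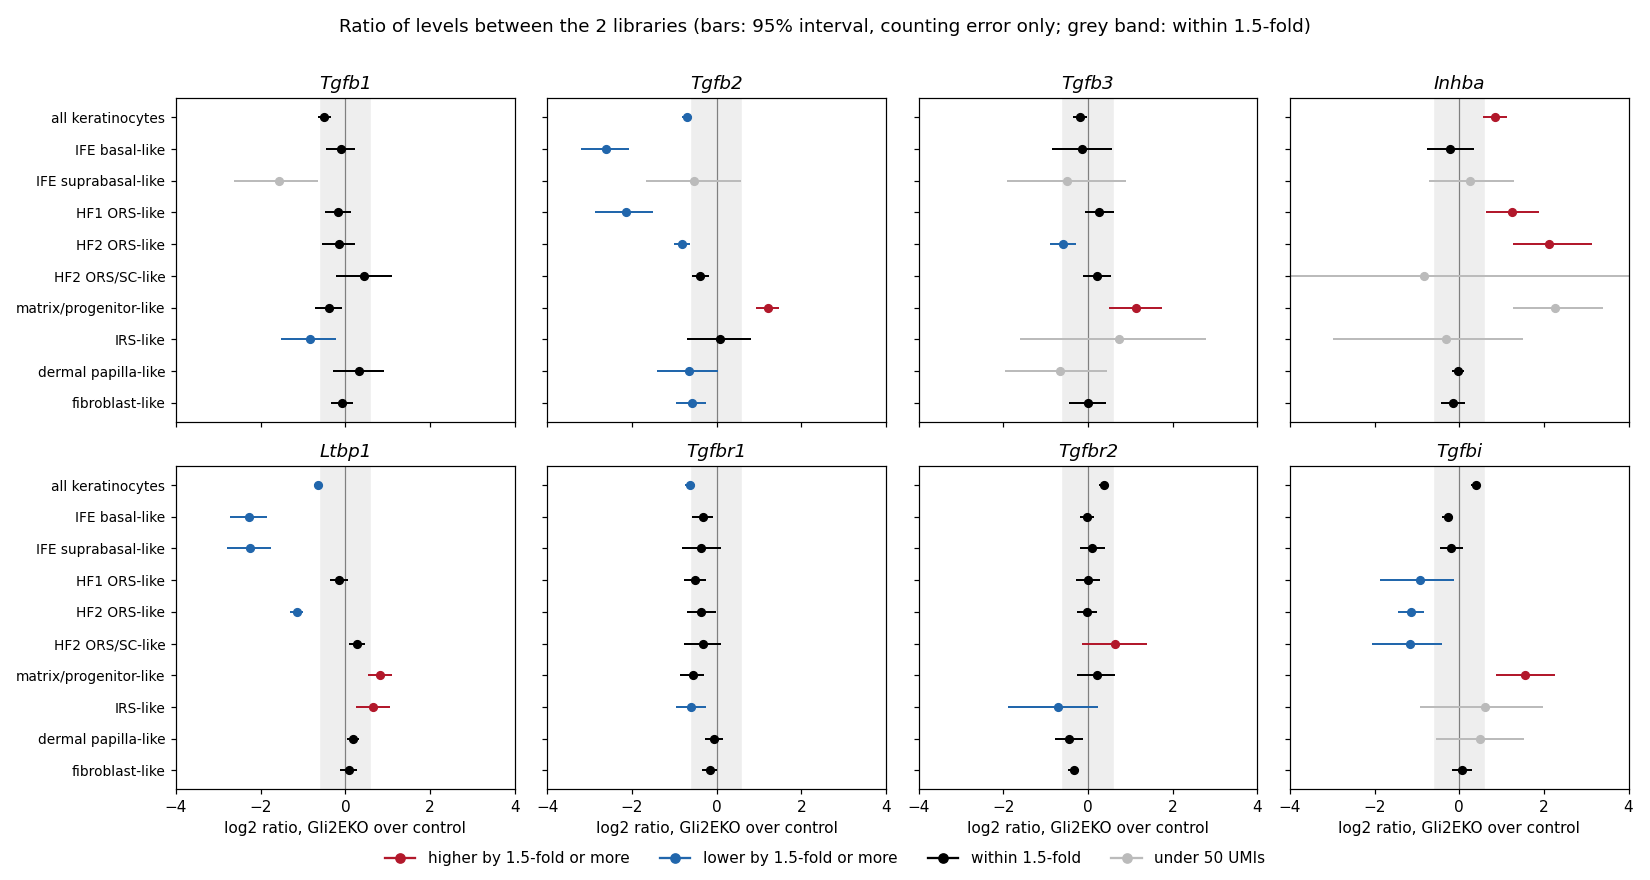
Each panel gives 1 gene's log2 ratio of Gli2EKO over control CPM (horizontal axis) in all keratinocytes and 9 classes (vertical axis), with bars for 95% counting intervals, red and blue for 1.5-fold or more higher and lower, and grey for under 50 UMIs. Tgfb2 and Ltbp1 lie far below 0 in the IFE basal-like class (-2.61 and -2.27) and above 0 in the matrix/progenitor-like class (1.20 and 0.83), whereas the ratios of Tgfbr1 lie between -0.63 and -0.06.

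Both receptor genes were found in each keratinocyte and dermal class, and the order of the classes differed between them. Tgfbr1, the type I receptor, was high in dermal papilla-like cells, with 412 CPM in the control library and 395 CPM in the Gli2EKO library, and in immune-like cells, with 285 and 406 CPM. The dermal papilla-like cells were the higher in the control library, and the intervals of both classes overlapped in the Gli2EKO library. Within the immune-like cells it was highest in those led by H2-Ab1 and Cd74, with 511 and 587 CPM, and low in those led by Pf4 and Mrc1, with 28.4 and 21.1 CPM. The cells led by H2-Ab1 were 40 of 92 control and 24 of 45 Gli2EKO immune-like cells, and this share also enters the levels of the class. Among the named keratinocyte classes Tgfbr1 was highest in the IRS-like class, with 104 and 68.6 CPM, and lowest in the IFE suprabasal-like class, with 17.5 and 13.5 CPM.

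Tgfbr1 was lower in the Gli2EKO library in each of the 9 named keratinocyte classes. The log2 ratio was -0.33 (-0.55 to -0.11) in the IFE basal-like class, -0.50 (-0.74 to -0.28) in the HF1 ORS-like class, -0.57 (-0.84 to -0.32) in the matrix/progenitor-like class and -0.60 (-0.94 to -0.29) in the IRS-like class. The lowest log2 ratio of these classes was -0.72 in the companion layer-like class, from 103 control and 34 Gli2EKO UMIs. In the HF2 ORS/SC-like class, with 67.2 and 53.4 CPM, and in the IFE suprabasal-like and sebaceous gland (SG)-like classes the interval included 0. The 2 unnamed clusters led by S100a3 and Krt35 and by Tox and Cdh13 had higher levels in the Gli2EKO library, with intervals that included 0. Over all keratinocytes the level was 61.4 CPM in the control library and 39.8 CPM in the Gli2EKO library, a log2 ratio of -0.63 (-0.72 to -0.53), and -0.42 with the clusters weighted to the control shares. In dermal papilla-like cells the log2 ratio was -0.06 (-0.24 to 0.11), in fibroblast-like cells -0.17 (-0.32 to -0.02) and in melanocyte-like cells -0.37 (-0.85 to 0.09). Endothelial-like cells had -0.86 (-2.97 to 0.51) from 29 and 4 UMIs.

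Tgfbr2, the type II receptor that binds the ligand, was highest in endothelial-like cells, with 449 and 367 CPM, and in fibroblast-like cells, with 290.3 CPM in the control library (279 to 302) and 229 CPM in the Gli2EKO library (217 to 242). Among the named keratinocyte classes it was highest in the IFE basal-like class, where the libraries lay close together at 122 and 120.3 CPM and the interval of the log2 ratio was -0.16 to 0.12. The HF2 ORS-like class followed with 70.8 and 69.2 CPM, then the HF1 ORS-like class with 41.8 and 42.0 CPM and the IFE suprabasal-like class with 41.0 and 44.1 CPM. The neighbours in the latter pair had overlapping intervals. It was low where Tgfb2 was highest: the HF2 ORS/SC-like class had 14.9 and 23.1 CPM, and the interval of its log2 ratio, -0.11 to 1.37, included 0. It was also low in the IRS-like class, with 12.6 and 7.40 CPM, and in the companion layer-like class, with 6.31 and 12.4 CPM. In no class with at least 50 UMIs and an interval without 0 did Tgfbr2 differ by 1.5-fold or more. In fibroblast-like cells the log2 ratio was -0.34 (-0.44 to -0.24) and in dermal papilla-like cells -0.45 (-0.77 to -0.14).

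**Figure D4:**
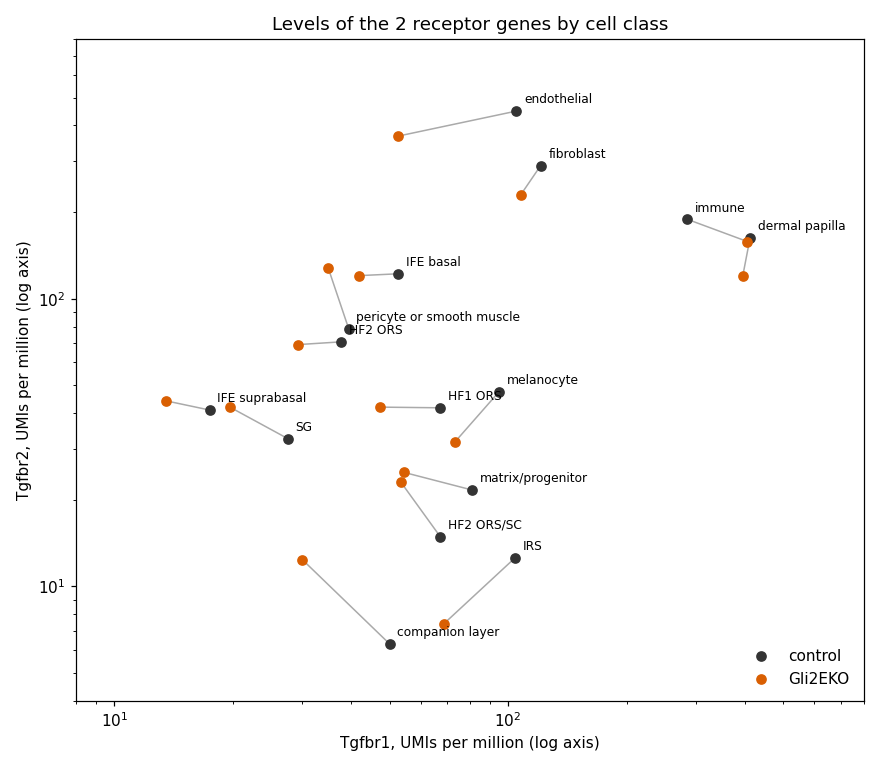
Points give the level of Tgfbr1 (horizontal log axis, CPM) and Tgfbr2 (vertical log axis, CPM) in each class, with control in black, Gli2EKO in orange and a line joining the 2 libraries. The IFE basal-like class lies high for Tgfbr2 (122 and 120.3 CPM) and the IRS-like class low (12.6 and 7.40 CPM), although Tgfbr1 is higher in the latter.

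To see which cells carried both receptor chains, cells were thinned to 5000 UMIs. Both genes were detected in 37.2% of control dermal papilla-like cells (30.1 to 44.6%) and 26.7% of Gli2EKO ones (19.4 to 35.0%), and in 24.2% and 21.5% of fibroblast-like cells. Among keratinocytes the share was 8.2% and 6.0% in the IFE basal-like class, 4.8% and 2.6% in the HF1 ORS-like class, and 0 of 238 and 1 of 150 cells in the HF2 ORS/SC-like class. These shares were close to the product of the shares of each gene, for example 35.5% and 27.9% in dermal papilla-like cells and 8.1% and 6.8% in the IFE basal-like class. Tgfb2 and Ltbp1 were found together in 26.9% of control and 25.3% of Gli2EKO HF2 ORS/SC-like cells, where the products were 24.8% and 23.1%. Inhba and Ltbp1 were found together in 88.5% and 83.7% of dermal papilla-like cells.

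Tgfbi, which codes for a matrix protein induced by TGF-β, was highest among keratinocytes in the IFE basal-like class, with 239.8 CPM in the control library (228 to 252; 1462 UMIs) and 198 CPM in the Gli2EKO library (189 to 208; 1696 UMIs), a log2 ratio of -0.27 (-0.38 to -0.17). The IFE suprabasal-like class had 50.8 and 44.6 CPM. In the follicle it was lower in the Gli2EKO library in each ORS class. The HF2 ORS-like class had 65.9 CPM (59.7 to 72.5) and 30.0 CPM (25.1 to 35.6), a log2 ratio of -1.13 (-1.43 to -0.85), and Tgfbi was detected in 215 of 478 control and 82 of 293 Gli2EKO cells. The IFE suprabasal markers given above for the HF2 ORS-like class stand beside this ratio, and their part was not tested. The HF2 ORS/SC-like class had 29.8 and 13.0 CPM, a log2 ratio of -1.17 (-2.03 to -0.44). The skeletal muscle markers given above for that class stand beside this ratio too. The HF1 ORS-like class had 6.92 and 3.57 CPM, a log2 ratio of -0.92 that ranged from -1.07 to -0.14 over the alternative settings.

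Tgfbi was higher in the Gli2EKO library in the matrix/progenitor-like class, with 5.33 CPM from 36 UMIs and 15.8 CPM from 45 UMIs, a log2 ratio of 1.56 (0.90 to 2.24), as Tgfb2, Tgfb3 and Ltbp1 were. It was also higher in immune-like cells, with 135 CPM in the control library (112 to 161; 92 cells) and 314 CPM in the Gli2EKO library (269 to 364; 45 cells), a log2 ratio of 1.22 (0.88 to 1.56). Tgfbi was higher in the Gli2EKO library in the cells led by H2-Ab1 and Cd74, with 203 and 354 CPM, and in those led by Pf4 and Mrc1, with 165 and 331 CPM, while those led by Cd3g and Trdc had 1 and 0 UMIs. The cells led by Cd3g were 30 of 92 control and 8 of 45 Gli2EKO immune-like cells, and this share also enters the ratio of the class. The IFE suprabasal markers summed to 190.0 CPM in control and 556 CPM in Gli2EKO immune-like cells, and their part was not tested. Fibroblast-like cells had 59.4 and 62.1 CPM, and among their clusters the one led by Fgfr4 and Lum had 209.7 and 113 CPM and the one led by Clec3b and Tnxb 55.6 and 89.2 CPM. Over all keratinocytes the log2 ratio of Tgfbi was 0.39 (0.31 to 0.48), but it was -0.40 with the Gli2EKO clusters weighted to the control shares.

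The members were counted class by class, as higher or lower by 1.5-fold or more among genes that reached 50 UMIs with both libraries added, beside the share of all such genes. Over all keratinocytes, 1 of 8 members was higher (Inhba) and 3 were lower (Tgfb2, Ltbp1 and Tgfbr1), where 4.21% of all genes were higher and 9.61% lower. With the Gli2EKO clusters weighted to the control shares, all 3 lower members came within 1.5-fold, at -0.31, -0.27 and -0.42. In the IFE basal-like class 0 of 8 were higher and 2 lower (all genes 3.46% and 4.85%), and in the IFE suprabasal-like class 0 of 4 measured were higher and 1 lower (2.79% and 7.09%). In the HF1 ORS-like class 1 of 8 was higher and 2 lower (2.42% and 5.06%), and in the HF2 ORS-like class 1 was higher and 4 lower (2.46% and 9.48%). The HF2 ORS/SC-like class had 1 of 7 higher and 1 lower (3.95% and 5.87%), and the IRS-like class 1 of 5 higher and 3 lower (4.27% and 9.24%). The matrix/progenitor-like class had 4 of 7 higher and 0 lower (4.94% and 6.93%), with a median log2 ratio of 0.83 over the 7 members against -0.07 over all 10065 genes. In dermal papilla-like cells 0 of 6 were higher and 1 lower (5.23% and 5.68%), and in fibroblast-like cells 0 of 8 were higher and 1 lower (3.4% and 4.76%).

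Other genes of the pathway were read from a list of 42. Over all keratinocytes 38 were measured, of which 1 was higher by 1.5-fold or more and 5 were lower (all genes 4.21% and 9.61%), and their median log2 ratio was -0.23 against -0.14 over all genes. The higher gene was Postn, a matrix protein gene, with 139.6 CPM in the control library and 244 CPM in the Gli2EKO library. By class, Postn was higher by 1.5-fold or more in the IFE suprabasal-like class but lower by 1.5-fold or more in the HF1 ORS-like class. The lower ones included Bambi, a decoy receptor gene, with 24.2 and 11.1 CPM, and the matrix genes Fbn1, Ltbp2 and Col1a1. The SMAD genes differed less: Smad2 had 89.1 and 71.5 CPM, Smad3 22.5 and 20.6 CPM and Smad4 142 and 123 CPM. Levels over all keratinocytes also move with the shares of the classes, and those of the list genes were not weighted to the control shares. The IFE suprabasal-like class, for example, held 4.87% of control and 9.93% of Gli2EKO cells.

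In the matrix/progenitor-like class 5 of 30 measured list genes were higher and 2 lower, against 4.94% and 6.93% of all genes. Fst, the activin antagonist, was 47.0 CPM in the control library and 242 CPM in the Gli2EKO library, a log2 ratio of 2.36 (2.17 to 2.56). Fst is among the leading genes of a cluster of the HF2 ORS-like class, and the HF2 ORS markers summed to 80.4 and 247 CPM here, and their part in the result was not tested. Itgb6 and Itgb8, whose integrins free latent TGF-β, had 19.0 and 37.2 CPM and 5.48 and 12.3 CPM. Pmepa1, a target gene and inhibitor of the pathway, had 121 and 185 CPM, and Tagln 27.4 and 71.9 CPM. Bambi, with 45.5 and 21.0 CPM, and Cdkn1a, with 65.3 and 40.0 CPM, were lower. In the HF2 ORS-like class 1 of 32 was higher and 4 lower (all genes 2.46% and 9.48%). The higher gene was Fn1, the fibronectin gene, at 10.0 and 27.2 CPM. The lower ones were Itgb8, at 56.6 and 32.5 CPM, Tagln, the ligand gene Inhbb and the receptor gene Acvr2a. In the HF2 ORS/SC-like class 3 of 32 were higher and 6 lower, among them Fst with 536 and 252 CPM, against 3.95% and 5.87% of all genes and beside the skeletal muscle markers of that class.

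In the IFE basal-like class 3 of 33 list genes were higher (Acvr2b, Tagln and Fn1) and 3 were lower, among them Ltbp4 and Itgb8, against 3.46% and 4.85% of all genes. Ltbp4, a latency gene like Ltbp1, had 71.9 CPM in the control library and 43.2 CPM in the Gli2EKO library, a log2 ratio of -0.73 (-0.94 to -0.53). In the IFE suprabasal-like class 3 of 30 were higher and 1 lower (all genes 2.79% and 7.09%), and in the HF1 ORS-like class 0 of 35 were higher and 4 lower (2.42% and 5.06%), with Ccn2 at 90.8 and 51.1 CPM. In the IRS-like class 0 of 27 were higher and 5 lower (4.27% and 9.24%), namely Ltbp3, Ltbp4, Acvr2b, Smad3 and Tagln. In dermal papilla-like cells 4 of 25 were higher and 3 lower (5.23% and 5.68%). Fst, which was high here beside Inhba, had 1349.5 CPM in the control library and 784 CPM in the Gli2EKO library, a log2 ratio of -0.78 (-0.90 to -0.67). The HF2 ORS markers summed to 1067 and 288 CPM in these cells, and their part in the Fst difference was not tested. In fibroblast-like cells 3 of 37 were higher (Inhbb, Gdf11 and Fst) and 1 lower (3.4% and 4.76%), the latter being Postn with 1969 and 1074 CPM. Fst was thus lower in the Gli2EKO library in dermal papilla-like cells and higher in fibroblast-like cells.

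Genes with a distribution like that of a member were sought over the 31 control clusters with at least 20 cells, by Pearson's r of log2(CPM + 10) among 12339 genes, with r over 26 Gli2EKO clusters given second. Clusters share libraries and differ in depth, so r is a description. For Inhba these were Zic4 (0.93 and 0.87), Corin, the dermal papilla marker (0.93 and 0.91), and a, the agouti gene (0.92 and 0.81). For Tgfb2 they were Adamts17 (0.75 and 0.70), Evi5l and Nrep, for Tgfb3 Tax1bp1 (0.76 and 0.53), Slc7a6 and Irx1, and for Tgfb1 Fxyd5 (0.85 and 0.76), Tpm3 and Lyn. For Ltbp1 they were Bcl9 (0.79 and 0.70), Zfp760 and Fam168a, for Tgfbr1 Sh2b2 (0.82 and 0.86), Tamalin and Pde4dip, for Tgfbr2 Ergic1 (0.86 and 0.90), Zfp652 and Mcu, and for Tgfbi Cysltr1 (0.74 and 0.76), Il1r2 and Cryzl2. With 1 CPM added in place of 10, none of the 3 genes remained for Inhba, 1 of 3 remained for each of Tgfb2, Tgfb3, Ltbp1 and Tgfbi, 2 for Tgfb1 and Tgfbr1, and 3 for Tgfbr2. Among the members, r was highest between Tgfb2 and Ltbp1 in the control clusters (0.72, and 0.56 in the Gli2EKO clusters) and between Tgfb1 and Tgfbr1 in the Gli2EKO clusters (0.73, and 0.38 in the control clusters). It was 0.64 and 0.61 for Tgfb2 and Tgfb3, 0.65 and 0.57 for Inhba and Tgfbr1, and 0.46 and 0.60 for Inhba and Ltbp1. For Tgfbr1 and Tgfbr2 it was 0.22 in both libraries.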

How the data were processed

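Cells of dorsal epidermal whole mounts were captured with a 10x Genomics 3′ kit that reads the polyA end of RNA, and the authors mapped and counted the reads with Cell Ranger 9.0.1 on GRCm39. The deposited matrices hold raw UMI counts per gene and barcode, with no normalization. They hold no cell labels, so cells were classified here.

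Barcodes with more than 1000 and fewer than 8000 detected genes and under 15% mitochondrial UMIs were kept (4844 control, 3362 Gli2EKO). The 8% with the highest Scrublet score (scanpy 1.11.5, expected rate 0.06) were removed from each library as doublets, because the automatic threshold marked 261 control cells and 5 Gli2EKO cells. The remaining 4456 and 3093 cells were log-normalised in Seurat 5.3.0 (R 4.3.3). Clustering used 2000 variable genes without the members and the pathway list, 20 components, an own implementation of Harmony, and Louvain clustering at resolution 0.5, with keratinocytes and other cells clustered separately. A cluster took the name of the marker list with the highest score (at least 1, with 3 or more markers in at least 10% of cells), unless more markers of another class were among its top 10 leading genes. The members and lists were chosen with earlier results of these data known.

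For each library, the UMIs of a gene in a class were added up and divided by all UMIs of that class to give CPM, with a 95% interval from the exact Poisson distribution. Ratios had 0.5 UMIs added and a conditional binomial interval, and shares of cells had Clopper-Pearson intervals after thinning to 2000 UMIs (5000 for pairs of genes). These intervals hold counting error alone, and a single library per genotype allowed no test. Named were the members, the pathway genes past 1.5-fold with at least 50 UMIs (in part, and 1 list gene is counted but not reported here), and, as most alike, the 3 genes with the highest r of log2(CPM + 10), or with 1 CPM added as an alternative. The ratio code was tested on simulated data. Doublet removal, resolution, integration, scaling and thresholds were varied. Gene coordinates are from GENCODE M39, and promoters from RefSeq (9 windows for 7 members; Tgfb3 had none). Python 3.11.15, numpy 2.4.6 and scipy 1.17.1 were used.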

Additional observations from a re-analysis of the deposited data

Results flagged for a closer look

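For each of 4 members, 1 pair of classes is given in which the log2 ratio of Gli2EKO over control lay above 0 in one class and below 0 in the other. Other pairs of classes also differed in sign, such as the HF2 ORS/SC-like and HF2 ORS-like classes for Ltbp1. Each pair has 1 library per genotype, and the difference was not tested. The log2 ratio of Tgfb2 in the matrix/progenitor-like class exceeded that in the IFE basal-like class by 3.81, and that of Ltbp1 did so by 3.10. The log2 ratio of Tgfb3 in the matrix/progenitor-like class exceeded that in the HF2 ORS-like class by 1.72. The log2 ratio of Tgfbi in the matrix/progenitor-like class exceeded that in the HF2 ORS/SC-like class by 2.73. The matrix/progenitor-like class enters all 4, and its IFE basal markers summed to 1310 CPM in the control library and 3147 CPM in the Gli2EKO library, whose part was not tested.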

How the results depend on the processing

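Of 128 log2 ratios of members, 31 were past 1.5-fold, 30 of these kept their sign in every alternative and 20 stayed past 1.5-fold in every one. The exception in sign was Ltbp1 in the IRS-like class, at -0.23 with no doublet removal. With the Gli2EKO clusters weighted to the control shares, the log2 ratios over all keratinocytes were -0.25 for Tgfb1, -0.31 for Tgfb2, 0.11 for Tgfb3, -0.27 for Ltbp1, -0.42 for Tgfbr1, 0.029 for Tgfbr2 and -0.40 for Tgfbi, so those of Tgfb3 and Tgfbi changed sign and those of Tgfb2, Ltbp1 and Tgfbr1 came within 1.5-fold. With Scrublet's automatic threshold that of Inhba was 1.12. With 1 CPM added in the likeness, 5 of 8 lists of most alike genes kept fewer than 2 of 3. At a limit of 2-fold, 0 members were higher and 0 lower over all keratinocytes, and of the pathway list 0 were higher and 2 lower. Leaving out the 3% of cells with the most UMIs of a gene, chosen after seeing the data, left 27 of 27 ratios with their sign and 26 past 1.5-fold. For genes found in few cells, this cut can take all UMIs of a class in a library. It left 0 Tgfb2 UMIs in Gli2EKO HF1 ORS-like cells and 0 Inhba UMIs in control HF2 ORS-like cells. A kept sign therefore cannot show that a ratio does not rest on few cells. The companion layer-like class was not found with the automatic threshold or without integration, nor the HF2 ORS/SC-like class at resolution 0.3. No paired analysis was possible because each genotype has 1 library, and leaving out a replicate was not possible for the same reason. Levels under about 50 UMIs are limited by counting error, and class names were rebuilt from markers. Spread between mice could not be measured.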
